A study of Mus musculus with 55 samples.

Results

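Of the replication-dependent histone genes, which are named here as the symbols that start with Hist1h, Hist2h, Hist3h or Hist4h, the pre-mRNA tables held 4 of 9911 rows in CCNA-GFP cells and 5 of 10237 rows in CTCF-AID cells, or 5 genes of the 10574 listed in either table. The members were found by symbol, among the genes that had passed the expression threshold of the deposited tables. All 5 encode histone H2B and lie in the Hist1 cluster on mouse chromosome 13: Hist1h2bc, Hist1h2bp, Hist1h2bq and Hist1h2br in both tables, and Hist1h2be in the CTCF-AID table. No H1, H2A, H3 or H4 gene of the clusters was listed, so that what follows describes H2B genes and not the whole family.

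CCNA-GFP cells are E14Tg2a mouse embryonic stem (ES) cells, strain 129/Ola, with a cyclin A reporter of the cell cycle, and CTCF-AID cells are a line of the same origin in which auxin (IAA) degrades CTCF, an architectural DNA-binding protein. Per the methods, the CTCF-AID cells are a single numbered line, and both lines grew in serum and LIF. Cells were held with the CDK1 inhibitor RO-3306 (10 µM, 4 h), then with nocodazole (50 ng/ml, 4 h), collected by shake-off as mitotic cells and released, and asynchronous cells were taken alongside. The 19 CCNA-GFP libraries hold 3 asynchronous and 3 mitotic samples, 2 samples for each of the times 20, 30, 40, 60, 90 and 120 min from release and a single one for 50 min, none with IAA. The 36 CTCF-AID libraries hold 18 without IAA (−IAA) and 18 with 0.5 mM IAA (+IAA). IAA was added to nocodazole-arrested cells 2 h before release and kept on after it, and asynchronous cells were treated in parallel for 4 h. The stages thus differ in their time with IAA. Each arm has 3 asynchronous, 3 mitotic and 2 samples at each of 20, 40, 50, 60, 90 and 120 min. Both arms carry the degron-tagged CTCF.

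Replication-dependent histone genes supply the H1, H2A, H2B, H3 and H4 proteins that wrap newly copied DNA, and H2B pairs with H2A in the nucleosome. Their mRNAs are made mainly in S phase, and the usual transcript has no intron and no poly(A) tail but ends in a stem-loop that the protein SLBP binds. ES cells have a short G1 phase, so that many cells of a cycling culture are replicating their DNA.

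The values are deposited as TPM, in principle a length-corrected share of all transcripts in a library. They are those of the pre-mRNA isoform of each gene, an unspliced model that spans the longest mRNA, as the authors quantified it. The deposited values also carry a factor for each library (2.17–3.81 in CCNA-GFP, 1.84–2.80 in CTCF-AID) whose purpose is not given. They are therefore not a plain share of transcripts. The tables keep no read counts, so the depth behind a value is unknown and replicates give the only error. The listed rows summed to 13747–42576 TPM per CCNA-GFP library and 17702–43370 TPM per CTCF-AID library, lowest in mitosis and at 20 min and highest at 50 to 90 min, so that the total also moves over the stages. The RNA is that of a whole culture, in which a smaller share of cells that transcribe a gene and less RNA per cell cannot be told apart. Of 8 ES cell markers 7 were listed and none was at 0, with Sox2 not listed; no endoderm marker of 4 was listed, 2 of 4 fibroblast markers were listed in CTCF-AID only, where they summed to at most 3.42 TPM, and the 3 mesoderm and ectoderm markers summed to at most 13.3 TPM. These low lists also varied over the stages, and their part in the histone values was not tested.

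The 5 listed genes share a feature that the choice by symbol did not use. In the annotation given here (Gencode vM21, assembly GRCm38, which is also known as mm10) 70 genes carry such symbols (6 H1, 20 H2A, 19 H2B, 12 H3 and 13 H4), and exactly 5 of them have an annotated transcript of 2 or more exons. Those 5 are the listed genes, and none of the other 65 was listed in either table. Among protein-coding genes of the annotation, 0 of 1328 with only single-exon transcripts were listed, against 9549 of 20596 genes with a longer exon chain (46.4%) in CCNA-GFP and 9867 (47.9%) in CTCF-AID. Of all listed rows matched to the annotation, 14 in each table had only single-exon transcripts (0.141% in CCNA-GFP and 0.137% in CTCF-AID). The other histone genes were thus not analysed here, and no level can be given for them.

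The gene bodies differ widely in length. Hist1h2bp lies at chr13:21787461-21789213 on the plus strand and spans 1753 bases, with a transcript of 1 exon and a spliced one of 2 exons. Hist1h2bq lies at chr13:21806612-21810197 on the minus strand (3586 bases), and Hist1h2br at chr13:21833743-21837530 on the plus strand (3788 bases). Each of these 2 genes has a transcript of 1 exon of 381 bases, one of 2 exons and one of 3 exons that is annotated as a target of nonsense-mediated decay. Hist1h2bc lies at chr13:23684199-23692908 on the plus strand (8710 bases, 2 exons). Hist1h2be lies at chr13:23583670-23621124 on the minus strand and spans 37455 bases, and Hist1h1e and the pseudogene Gm11398, neither of which was listed, overlap it on the same strand. In the annotation given here, which is not the Gencode vM12 of the authors, unspliced models of Hist1h2bp, Hist1h2bq and Hist1h2br contain their whole single-exon transcripts. For these genes short histone mRNA and unspliced RNA cannot be told apart in these values. Hist1h2bc has no annotated single-exon transcript, and that of Hist1h2be is a processed transcript of 2099 bases. Hist1h2be also has an inner RefSeq start within its gene body. A stem-loop lies in exon 2 of its longer spliced transcript. Any short histone mRNA from that start could therefore not be told apart from unspliced RNA of Hist1h2be either, and its part in the values was not tested.

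**Figure D1:**
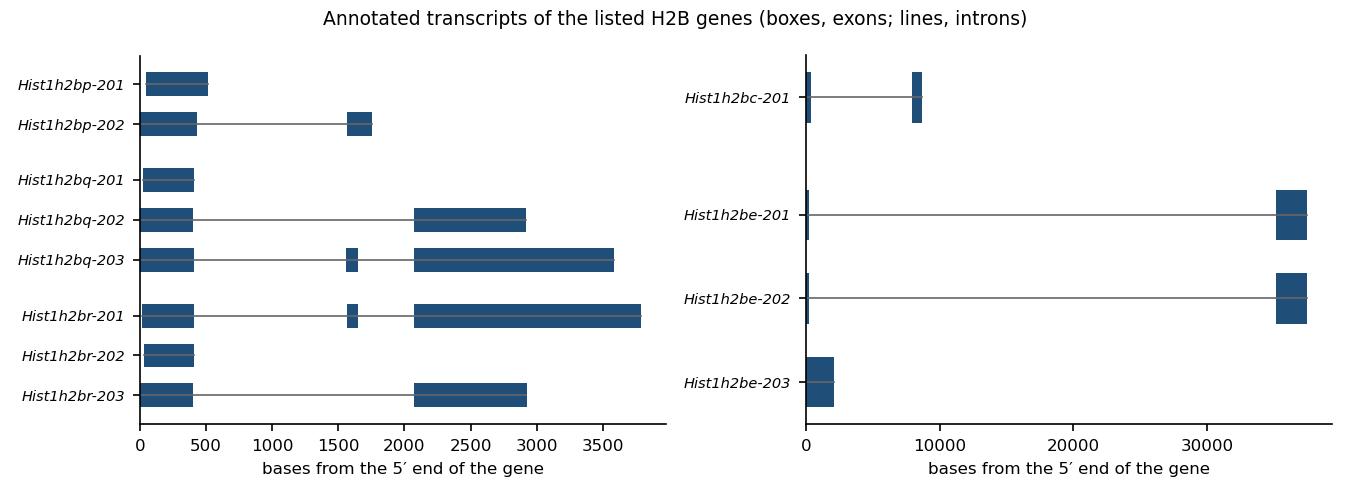
Annotated transcripts of the 5 listed H2B genes (Gencode vM21), drawn to scale within each panel as distance in bases from the 5′ end of the gene, with exons as boxes and introns as lines. Every gene has at least 1 spliced transcript, and the lengths run from 1753 to 37455 bases.

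The promoters are shown because Hist1h2bq and Hist1h2br share theirs, letter for letter, while their values below do not move together. Below are the 250 bases before the RefSeq start (GRCm38.p6), 5′ to 3′ on the gene's strand, at chr13:21787238-21787487 (plus strand) for Hist1h2bp, chr13:21810200-21810449 (minus strand) for Hist1h2bq and chr13:23585971-23586220 (minus strand) for Hist1h2be, in front of the inner of its 2 starts. Capitals mark matches, on either strand, to the CCAAT box, to the TATAAA box, to TTTCGCGC and to the octamer words ATTTGCAT or ATTTGAAT.
Hist1h2bp: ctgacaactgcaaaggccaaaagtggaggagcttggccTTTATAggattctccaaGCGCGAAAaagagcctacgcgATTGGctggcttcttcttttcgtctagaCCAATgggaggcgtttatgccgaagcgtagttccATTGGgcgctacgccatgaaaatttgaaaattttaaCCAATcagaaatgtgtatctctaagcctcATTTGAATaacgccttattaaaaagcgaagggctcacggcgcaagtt
Hist1h2bq: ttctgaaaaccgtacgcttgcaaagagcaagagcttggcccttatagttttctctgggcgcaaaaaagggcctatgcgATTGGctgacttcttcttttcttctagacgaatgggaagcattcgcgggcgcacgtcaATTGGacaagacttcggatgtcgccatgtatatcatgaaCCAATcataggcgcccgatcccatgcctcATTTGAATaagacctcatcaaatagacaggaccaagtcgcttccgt
Hist1h2be: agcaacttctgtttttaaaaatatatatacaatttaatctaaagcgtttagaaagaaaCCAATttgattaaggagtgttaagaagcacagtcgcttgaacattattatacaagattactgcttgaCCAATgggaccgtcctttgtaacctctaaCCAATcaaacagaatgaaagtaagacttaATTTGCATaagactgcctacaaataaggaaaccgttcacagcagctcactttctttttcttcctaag
The stretch of Hist1h2br at chr13:21833493-21833742 (plus strand) is the same as that of Hist1h2bq, and the 2 genes are identical at all 300 of 300 positions from 250 bases before to 50 after the start.

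CCAAT was found 4 times in the Hist1h2bp promoter and 3 times in each of the others. Of all 32851 RefSeq promoters of this length, 33.8% hold CCAAT, and of 63 promoters of the Hist1 to Hist4 genes 52 hold it (82.5%). The octamer ATTTGCAT of H2B promoters was found in Hist1h2be (1.6% of all promoters, 14 of 63 histone promoters). The other 3 members hold ATTTGAAT in a like place, 46 or 47 bases before the start, which 1.12% of all promoters and 14 of 63 histone promoters (22.2%) hold. It also stands 60 bases before the outer start of Hist1h2be, and this word was chosen after the sequences were seen. TATAAA (12.4%) and TTTCGCGC (0.256%) were found in Hist1h2bp, both on the other strand, and neither CACGTG (6.02%) nor TTTGGCGC (0.417%) was found in any of the windows shown. Matches are descriptions of the letters and not sites of binding.

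A fixed pattern of letters was searched for the stem-loop that marks replication-dependent histone mRNA. Stem-loops of other letters were not counted, so a gene without a match may still hold a stem-loop. The pattern was found in annotated transcripts of 26 of the 70 genes and of 2 of the 5 members. It is shown with its stem and loop in capitals and 5 flanking bases on each side, at base 416 of the single-exon transcript of Hist1h2bp and at base 630 of the longer spliced transcript of Hist1h2be.
Hist1h2bp: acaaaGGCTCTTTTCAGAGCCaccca
Hist1h2be: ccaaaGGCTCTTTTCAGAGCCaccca
No match lay in the annotated transcripts of Hist1h2bc, Hist1h2bq or Hist1h2br, which says only that these letters are not in the annotated models.

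Hist1h2bq and Hist1h2br are near-identical beyond their promoters. Of 2015 windows of 50 bases in the transcripts of Hist1h2bq, 1961 (97.3%) occur in Hist1h2br, and these are 88.7% of the 2212 windows of Hist1h2br. The single-exon transcript of either gene holds no window that its copy lacks. Of the other members, 29.4% of the windows of Hist1h2bc, 16.3% of Hist1h2be and 44.1% of Hist1h2bp occur in any other Hist1 to Hist4 gene. The counting could therefore divide reads of 1 copy over both, and the values of each copy are uncertain, which is why their sum is also given below. Introns were not compared.

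Hist1h2bq had the highest level of all rows in every asynchronous library. In CCNA-GFP its pre-mRNA stood at 319, 268 and 287 TPM in asynchronous replicates 1, 2 and 3, a mean of 291 ± 25.3 TPM (SD, n = 3). In mitotic cells it stood at 21.8, 27.7 and 18.2 TPM, 22.6 ± 4.77 TPM (SD, n = 3). The asynchronous libraries thus lay far above the mitotic ones without overlap, in 3 of 3 replicates.

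After release Hist1h2bq stayed near its mitotic level for 50 min. It measured 19.8 and 19.1 TPM after 20 min, 26.4 and 16.8 TPM after 30 min, 35.5 and 17.5 TPM after 40 min and 26.0 TPM in the single library after 50 min. It then measured 88.8 and 60.9 TPM after 60 min, 159 and 127 TPM after 90 min and 127 and 109 TPM after 120 min. Every library from 60 min on lay above all mitotic libraries and below all asynchronous ones, and the mean at 120 min was 0.405 of the asynchronous mean.

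Hist1h2bc held the second highest level of the members in asynchronous cells and ran ahead of Hist1h2bq after release. In CCNA-GFP it measured 19.7, 14.8 and 20.8 TPM in asynchronous and 2.30, 2.03 and 1.80 TPM in mitotic replicates 1, 2 and 3. It measured 3.67 and 1.76 TPM after 20 min, 4.42 and 2.77 TPM after 30 min, 9.97 and 5.81 TPM after 40 min and 14.5 TPM in the single library after 50 min. From 30 min on all its libraries lay above the mitotic range, and it later measured 14.6 and 9.12 TPM after 60 min, 11.9 and 10.7 TPM after 90 min and 8.99 and 7.54 TPM after 120 min. None of these post-mitotic libraries lay above the lowest asynchronous library.

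Hist1h2bp and Hist1h2br followed another order, with their highest values after mitosis and low values in cycling cells. Hist1h2bp measured 2.18, 1.54 and 1.89 TPM in asynchronous cells, 4.18, 2.19 and 5.29 TPM in mitotic cells, 16.9 and 10.9 TPM after 40 min, 20.3 TPM after 50 min, 13.1 and 11.5 TPM after 60 min and 5.76 and 5.35 TPM after 120 min. Its highest asynchronous library lay just below its lowest mitotic one, and its highest value, in the single library at 50 min, was 10.8 times the asynchronous mean. Hist1h2br measured 3.34, 2.60 and 3.26 TPM in asynchronous cells, 1.53, 0.698 and 3.23 TPM in mitotic cells, 19.7 and 17.2 TPM after 40 min, 36.7 TPM after 50 min, 15.3 and 11.8 TPM after 60 min and 5.25 and 3.19 TPM after 120 min. At 50 min, again 1 library, it was 12.0 times its asynchronous mean, and by 120 min its range overlapped the asynchronous one.

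**Figure D2:**
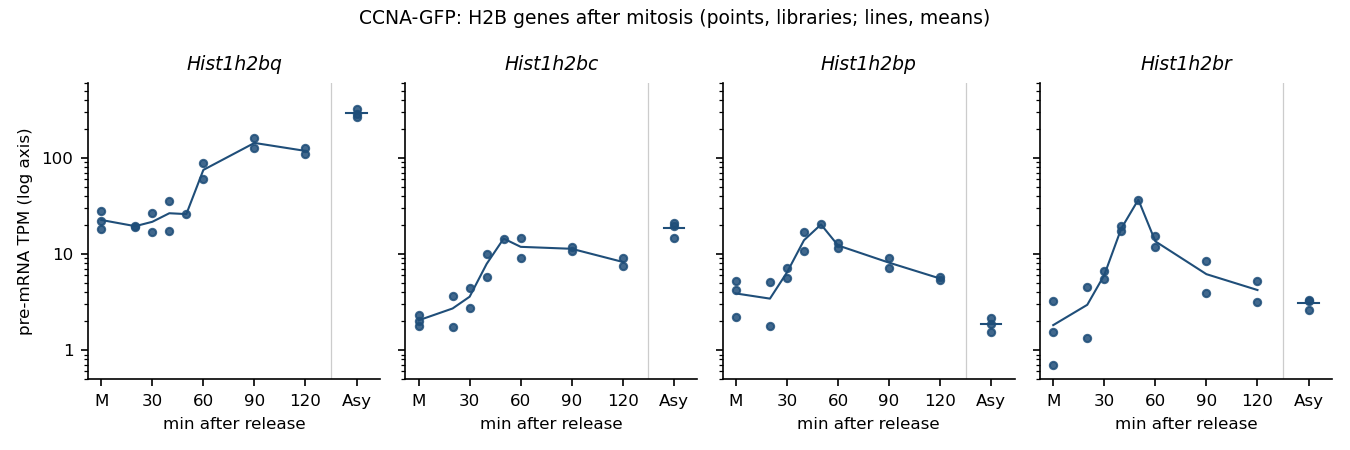
Pre-mRNA levels (TPM, log axis) of the 4 members in each CCNA-GFP library by stage, with 1 point per library and a line through the stage means. Hist1h2bq is highest in asynchronous cells (268–319 TPM), whereas Hist1h2bp and Hist1h2br are highest at 50 min, where there is 1 library.

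Which members rose after mitosis, and when, was asked with a linear model on log2(TPM + 1) fitted to all rows, at an adjusted p of 0.05. All fold changes and differences below are on this log2(TPM + 1) scale with their standard errors, which understates the change of low genes. At 20 min no CCNA-GFP member was called by limma (0% of all rows were called, 253 rows and 1 member had an unadjusted p under 0.05), and at 30 min Hist1h2br alone was called higher, by 1.17 ± 0.22 (adjusted p = 0.042), where 0.303% of rows were called. That call was lost in 3 of 8 alternatives, namely equal totals, no block and without replicate 1 (adjusted p up to 0.43).

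At 40 min 3 of 4 members were called higher, where 49.3% of all rows were, and none lower. Hist1h2br rose by 3.11 ± 0.22 (adjusted p = 1.5e-08), Hist1h2bp by 1.73 ± 0.19 (adjusted p = 8.5e-07) and Hist1h2bc by 1.51 ± 0.16 (adjusted p = 4.1e-07). The difference of Hist1h2bq was 0.07 ± 0.18, with a 95% interval of −0.30 to 0.45 (adjusted p = 0.77). This value turned to −0.53 with equal totals (adjusted p = 0.031) and −0.46 without replicate 1, and it was 0.63 and called higher without replicate 2. The median of the 4 was 1.62, beside 0.26 over all rows.

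At 60 min all 4 members were called higher, as were 88.3% of all rows, with a median of 1.82 beside 0.79 over all rows. Hist1h2br was higher by 2.69 ± 0.22 (adjusted p = 9.4e-10), Hist1h2bc by 2.05 ± 0.16 (adjusted p = 5.0e-10), and Hist1h2bq and Hist1h2bp by 1.59 ± 0.18 and 1.59 ± 0.19. All 4 were also called higher at 90 and 120 min, among 89.1% and 90.2% of rows, but with equal totals Hist1h2bp turned sign (−0.26 at 90 min and −0.37 at 120 min) and Hist1h2br was 0.25 and 0.41, none of these 4 called. The call of Hist1h2bp at 120 min (0.58) was also lost without replicate 2 or without the block. With every library scaled to 1 total the median of all rows at 60 min went from 0.79 to 0.02, and Hist1h2bp (0.45, adjusted p = 0.11) and Hist1h2bq (0.26, adjusted p = 0.23) were no longer called, while Hist1h2bc (0.94) and Hist1h2br (1.68) were.

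Between mitotic and asynchronous cells, 3 members were called higher and 1 lower, where 70.4% of rows were called higher and 1.97% lower. Hist1h2bq was higher in asynchronous cells by 3.65 ± 0.16 (adjusted p = 4.2e-12), Hist1h2bc by 2.66 ± 0.14 (adjusted p = 7.9e-11) and Hist1h2br by 0.62 ± 0.19 (adjusted p = 0.0070). Hist1h2bp was lower in asynchronous than in mitotic cells, by −0.72 ± 0.17 (adjusted p = 0.0010). The call of Hist1h2br was lost with equal totals (0.26, adjusted p = 0.44) and without the block, and the difference of Hist1h2bp was −1.22 with equal totals.

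The same fit asked whether the level of cycling cells was reached within 120 min, and it shares its asynchronous libraries with the comparison before. After 40 min 2 members lay above asynchronous cells and 2 below, where 20.3% and 24.2% of rows were called. The same 2 and 2 were called after 30 min (3.99% of rows higher, 46.0% lower), 60 min (67.0% and 8.60%), 90 min (67.2% and 7.73%) and 120 min (63.4% and 5.86%), and after 20 min 1 lay above and 2 below (2.52% and 51.6%). The 2 above were Hist1h2bp, by 2.45 at 40 min and 1.30 at 120 min, and Hist1h2br, by 2.49 at 40 min and 0.57 ± 0.22 at 120 min (adjusted p = 0.028). The 2 below were Hist1h2bq, by −3.58 at 40 min and −1.39 at 120 min (adjusted p = 3.4e-06), and Hist1h2bc, by −1.16 and −1.06. Of these, the calls of Hist1h2br at 30 min (0.55, adjusted p = 0.042), 90 min (0.51, adjusted p = 0.042) and 120 min were lost in 4, 5 and 6 of 8 alternatives. At 90 min its difference was −0.02 with equal totals and 0.88 at most. The call of Hist1h2bp at 20 min (0.63, adjusted p = 0.011) was lost without replicate 1 or without the block, and that of Hist1h2bc at 60 min (−0.62, adjusted p = 0.0015) without the block (adjusted p = 0.052).

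**Figure D3:**
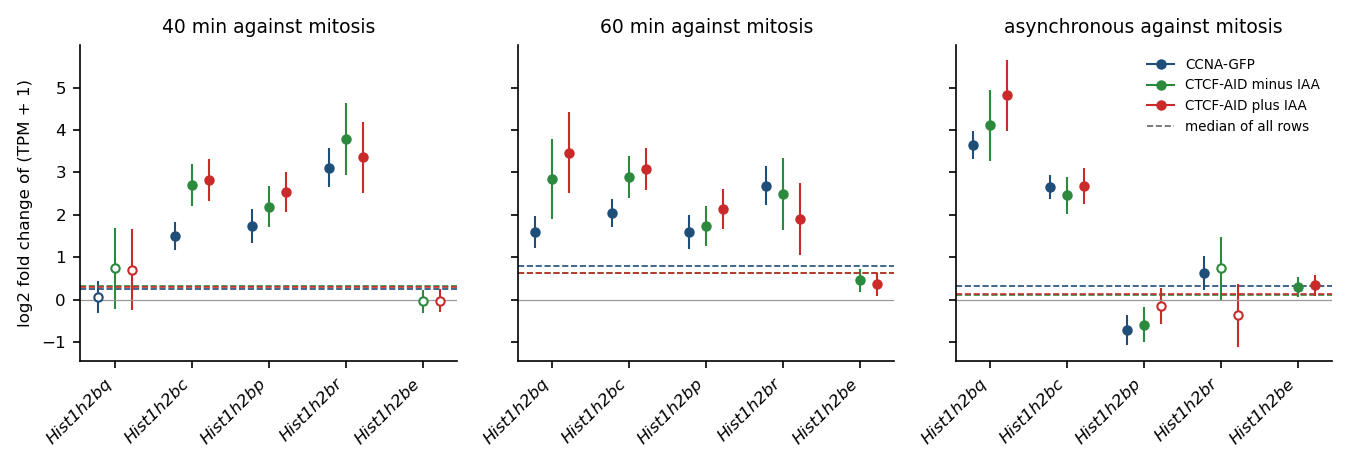
Differences from mitotic cells on the log2(TPM + 1) scale with 95% intervals, for each member, stage and arm, where filled points passed an adjusted p of 0.05 and the dashed line is the median of all rows. At 40 min Hist1h2bq is the open point at 0.07 in CCNA-GFP, while Hist1h2br stands at 3.11.

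The second line, CTCF-AID without IAA, was normalized separately, so its values stand beside those of CCNA-GFP without a test between them. The column headers of its asynchronous libraries, with and without IAA, are damaged in the deposited table, and every asynchronous CTCF-AID value and contrast rests on reading them as that stage. Hist1h2bq measured 262, 373 and 243 TPM in asynchronous and 20.4, 28.6 and 6.34 TPM in mitotic replicates 1, 2 and 3. It measured 27.7 and 23.0 TPM after 20 min, 52.4 and 19.6 TPM after 40 min, 115 and 76.3 TPM after 50 min, 165 and 122 TPM after 60 min, 155 and 162 TPM after 90 min and 186 and 143 TPM after 120 min. All libraries from 50 min on lay above the mitotic range and below the asynchronous one, and the mean at 120 min was 0.561 of the asynchronous mean.

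Hist1h2bc reached higher TPM here at 50 and 60 min than in cycling cells, a direction that turned at 60 min with equal totals. It measured 14.8, 16.2 and 16.8 TPM in asynchronous cells, 3.61, 1.59 and 1.40 TPM in mitotic cells, 24.4 and 14.5 TPM after 40 min, 29.0 and 32.6 TPM after 50 min, 23.6 and 19.8 TPM after 60 min and 10.2 and 8.69 TPM after 120 min. Both libraries at 50 min and both at 60 min lay above the asynchronous range, and both at 120 min below it. Against asynchronous cells the difference was 0.82 ± 0.24 at 50 min (adjusted p = 0.0030), a call lost with equal totals (0.11) or without replicate 3, and 0.43 at 60 min, which was not called (adjusted p = 0.096) and was −0.32 with equal totals. As a share of the summed TPM of listed rows, its 50 and 60 min libraries did not lie above the asynchronous range.

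Hist1h2bp and Hist1h2br again had their highest values early. Hist1h2bp measured 3.05, 2.67 and 1.75 TPM in asynchronous cells, 6.44, 2.86 and 3.80 TPM in mitotic cells, 28.1 and 18.4 TPM after 40 min, 23.2 and 26.9 TPM after 50 min, 15.2 and 17.5 TPM after 60 min and 5.32 and 4.89 TPM after 120 min. Hist1h2br measured 5.24, 4.17 and 5.60 TPM in asynchronous cells, 5.31, 1.00 and 2.64 TPM in mitotic cells, 46.1 and 41.3 TPM after 40 min, 20.0 and 42.0 TPM after 50 min, 16.6 and 17.8 TPM after 60 min and 6.98 and 7.60 TPM after 120 min. At 40 min Hist1h2br ranked 3 to 4 among all 10237 rows, and at 50 min its 2 replicates lay far apart. Hist1h2be, the longest member, stayed between 1.03 and 2.07 TPM in all 18 libraries, with 1.8, 1.41 and 2.00 TPM in asynchronous, 1.07, 1.42 and 1.19 TPM in mitotic and 1.98 and 2.07 TPM in the 60 min libraries.

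**Figure D4:**
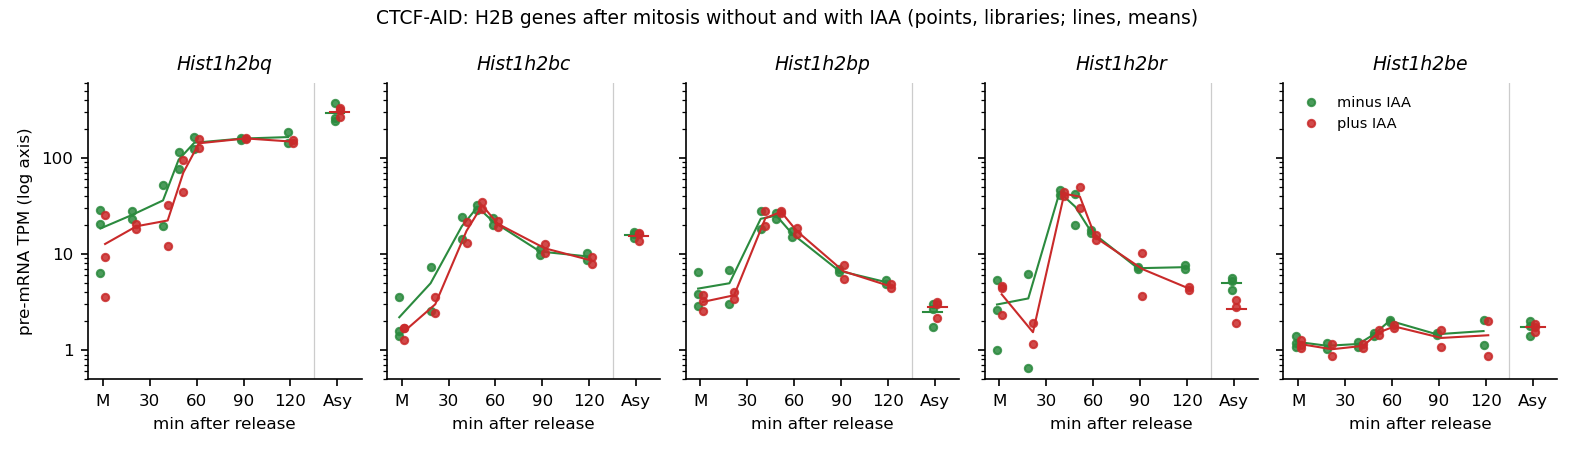
Pre-mRNA levels (TPM, log axis) of the 5 members in each CTCF-AID library by stage, with −IAA and +IAA libraries in separate colours and lines through the stage means. In asynchronous cells Hist1h2bq lies at 243–373 TPM without and 263–328 TPM with IAA, and at 40 min Hist1h2br lies at 41.3–46.1 TPM and 40.4–44.2 TPM.

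In the −IAA arm no member was called at 20 min by limma (0% of rows called, 397 rows and 1 member with an unadjusted p under 0.05). By 40 min 3 of 5 members had passed the test in the upward direction, as had 63.3% of rows, with a median of 2.19 beside 0.34 over all rows. Hist1h2br rose by 3.78 ± 0.41 (adjusted p = 3.1e-08), Hist1h2bc by 2.71 ± 0.24 (adjusted p = 1.6e-09) and Hist1h2bp by 2.19 ± 0.23. The difference of Hist1h2bq was 0.74 ± 0.46 (adjusted p = 0.16), or −0.20 without replicate 1 and 1.80, then called, without replicate 2, and that of Hist1h2be was −0.03.

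At 50 min 4 members were called higher (79.1% of rows) and at 60 min all 5 (84.8% of rows), with a median of 2.49 beside 0.63 over all rows at 60 min. Hist1h2bc was higher at 60 min by 2.90, Hist1h2bq by 2.85 ± 0.46 (adjusted p = 4.1e-06), Hist1h2br by 2.49, Hist1h2bp by 1.73 and Hist1h2be by 0.46 ± 0.13 (adjusted p = 0.0023). At 90 and 120 min 4 and 3 members were called higher (74.8% and 69.6% of rows). At 90 min the call of Hist1h2bp (0.52, and 0.0054 at its lowest) was lost in 4 of 8 alternatives and that of Hist1h2br (1.01) in 3, and at 120 min that of Hist1h2br (1.35) in 2. These included equal totals and the fit without replicate 2 in each case. With equal totals the difference of Hist1h2be at 60 min turned to −0.15 (adjusted p = 0.21), and those of Hist1h2bp and Hist1h2bq were 0.87 and 1.88.

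Asynchronous against mitotic cells gave 3 members higher and 1 lower in the −IAA arm (34.3% and 5.25% of rows). Hist1h2bq was higher by 4.11 ± 0.41 (adjusted p = 1.4e-07), Hist1h2bc by 2.47 ± 0.21 and Hist1h2be by 0.30 ± 0.11 (adjusted p = 0.042), and Hist1h2bp was lower, by −0.58 ± 0.20 (adjusted p = 0.026). The difference of Hist1h2br was 0.74 ± 0.36 (adjusted p = 0.11). The call of Hist1h2bp was lost without replicate 1 (−0.44) or 3 (−0.47), without the replicate block (adjusted p = 0.089) and with the library factor removed (−0.30), and that of Hist1h2be without replicate 1 or 3, without the block and with equal totals.

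Against asynchronous cells of the same arm, 2 members were higher and 2 lower at 40 min, where 50.8% of rows were called higher and 13.5% lower. Hist1h2br was higher by 3.04 and Hist1h2bp by 2.78, Hist1h2bq was lower by −3.37 and Hist1h2be by −0.33 (adjusted p = 0.030), the last call being lost without replicate 1 or 3 or without the block. The members called above and below numbered 1 and 3 after 20 min (6.69% and 20.7% of rows), 3 and 1 after 50 min (70.4% and 9.89%), 2 and 1 after 60 min (75.2% and 7.06%) and 1 and 1 after 90 min (59.3% and 7.32%). Of the calls in this arm, those of Hist1h2be at 20 and 40 min and of Hist1h2bp at 20 min were lost in 3 to 4 of 8 alternatives, those of Hist1h2bq at 50 and 60 min in 1 and 2, and that of Hist1h2bc at 90 min in 3. At 120 min Hist1h2bp was higher by 0.82 (51.0% of rows called higher), and Hist1h2bq (−1.07, adjusted p = 0.049) and Hist1h2bc (−0.69, adjusted p = 0.017) were lower (7.25% of rows). The call of Hist1h2bq there was lost when any 1 replicate was left out (−1.76, −0.73 and −0.94), without the block (−0.82) or with a pseudocount of 0.1, although its sign stayed and both libraries lay below all asynchronous ones. That of Hist1h2bc was lost without replicate 2 or without the block (adjusted p = 0.064), and that of Hist1h2bp with the library factor removed (0.42, adjusted p = 0.083).

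The division of the summed level between the 2 near-identical copies moved over the stages. Hist1h2br made up 0.96–1.12% of the sum of both in asynchronous CCNA-GFP libraries, 2.46–15.1% in mitotic ones, 35.7–49.5% after 40 min, 58.6% in the library of 50 min, 14.7–16.2% after 60 min and 2.85–3.96% after 120 min. In −IAA cells it made up 1.11–2.25% in asynchronous libraries, 3.39–29.4% in mitotic ones, 46.8–67.8% after 40 min, 14.8–35.5% after 50 min and 3.62–5.05% after 120 min. In +IAA cells it made up 0.717–1.03% in asynchronous libraries, 8.36–56.7% in mitotic ones, 57.6–77.0% after 40 min, 23.7–52.5% after 50 min and 2.68–3.08% after 120 min. The mitotic shares spread widely, and in +IAA cells the highest of them lay just below the 40 min range and above the 50 min one. Its share at 40 min thus lay above that of asynchronous cells in every library of all 3 arms, although the annotated exons and promoters of the 2 genes hardly differ. Which copy the reads came from was not tested.

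The TPM of both copies were also summed. In Gencode vM21 the 2 genes differ in length (3586 and 3788 bases). If the Gencode vM12 models of the authors differ likewise, the sum still depends slightly on how reads were divided between them. The sum was called earlier than Hist1h2bq alone. In CCNA-GFP it measured 23.4, 28.4 and 21.5 TPM in mitotic cells, 55.2 and 34.7 TPM after 40 min, 62.7 TPM after 50 min and 104 and 72.7 TPM after 60 min. In TPM both 40 min libraries lay above all mitotic ones. As a share of the summed TPM of listed rows, replicate 2 was lower at 40 min (34.7 of 19838 TPM) than in mitosis (28.4 of 13747 TPM). By that share replicate 1 was higher at 40 min. The sum was called at 40 min in CCNA-GFP (0.77 ± 0.14, adjusted p = 1.1e-04), in −IAA cells (1.79, adjusted p = 2.9e-05) and in +IAA cells (1.86), where Hist1h2bq alone was not. At 120 min it remained below asynchronous cells, by −1.32 in CCNA-GFP (adjusted p = 2.6e-07) and −0.95 in −IAA cells (adjusted p = 0.014). Summing the copies was chosen after their sequences were seen.

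**Figure D5:**
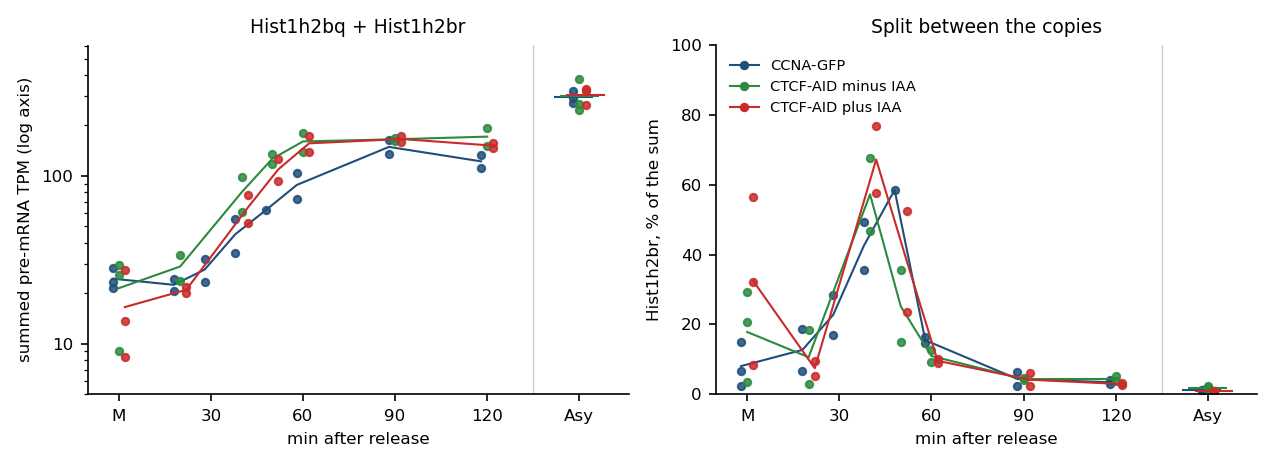
Summed level of Hist1h2bq and Hist1h2br (TPM, log axis), and the share of Hist1h2br in that sum (percent), by stage and arm, with 1 point per library. The share rises to 35.7–77.0% at 40 min and is at most 2.25% in asynchronous cells.

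Whether loss of CTCF changed the histone genes was asked by comparing +IAA with −IAA cells at each stage, and a difference was called where the adjusted p lay under 0.1 and the size of the log2 difference over 0.2. No call was made for any of the 5 members at any of the 8 stages by limma, and no member had an unadjusted p under 0.05. Paired by replicate number, Hist1h2bq was lower with IAA in every pair in mitosis (−1.05 to −0.17) and at 20 min (−0.58 to −0.15). The same held at 40 min (−0.67 to −0.66), 50 min (−0.76 to −0.26) and 120 min (−0.28 to −0.013). Its pairs were all higher at 90 min (0.0011 to 0.013) and mixed in asynchronous cells and at 60 min. Of all rows 1.01% were called in the asynchronous contrast and 0% in the contrasts at mitosis, 20 min and 40 min. The share was 0.283% after 50 min, 0.225% after 60 min, 0.733% after 90 min and 0.586% after 120 min. Hist1h2br in asynchronous cells, which had the smallest p, measured 3.29, 2.81 and 1.90 TPM with IAA and 5.24, 4.17 and 5.60 TPM without. The 2 sets of libraries do not overlap, but the difference of −0.72 ± 0.40 has a 95% interval of −1.55 to 0.11 (adjusted p = 1, from limma over all rows). Over its alternatives the adjusted p ran from 0.87, with the replicate block, to 1.

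The rise from mitosis to 60 min was also compared between the arms directly, and 0 of 5 members were called, where 16 of 10237 rows were (0.156%) and 214 rows had an unadjusted p under 0.05. The difference between the arms was 0.19 for Hist1h2bc (95% interval −0.50 to 0.88), 0.40 for Hist1h2bp (−0.26 to 1.07) and −0.09 for Hist1h2be (−0.46 to 0.29). It was 0.62 for Hist1h2bq (−0.70 to 1.95) and −0.58 for Hist1h2br (−1.76 to 0.59). These intervals are wide for the 2 copies, and differences between the arms as large as 1.95 on the log2 scale lie within them.

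Within the +IAA arm Hist1h2bq was again low up to 40 min, and Hist1h2br high at 40 min. Hist1h2bq measured 317, 328 and 263 TPM in asynchronous, 9.30, 25.2 and 3.58 TPM in mitotic, 32.5 and 12.1 TPM in 40 min, 158 and 125 TPM in 60 min and 153 and 142 TPM in 120 min libraries. Hist1h2br measured 4.43, 2.30 and 4.68 TPM in mitotic cells and 44.2 and 40.4 TPM after 40 min. At 40 min the mitotic and released libraries of Hist1h2br did not overlap, whereas those of Hist1h2bq did.

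In that arm 0 members were called against mitosis at 20 min by limma (0% of rows, 149 rows and 1 member with an unadjusted p under 0.05), then 3 after 40 min (58.7% of rows), 4 after 50 min (78.2%), 5 after 60 min (82.2%), 3 after 90 min (73.8%) and 2 after 120 min (68.2%), all higher, of which Hist1h2bp after 90 min (0.80) was lost with equal totals or without replicate 3. At 40 min the differences were 3.35 for Hist1h2br, 2.82 for Hist1h2bc and 2.54 for Hist1h2bp, and 0.71 for Hist1h2bq (adjusted p = 0.19), or −0.43 without replicate 1 and 2.00, then called, without replicate 2. In asynchronous cells 3 members were called higher (40.9% of rows), Hist1h2bq by 4.81, Hist1h2bc by 2.68 and Hist1h2be by 0.34 (a call lost in 4 of 8 alternatives, namely equal totals, no block and without replicate 1 or 3), whereas Hist1h2bp differed by −0.14 (adjusted p = 0.58) and Hist1h2br by −0.37 (adjusted p = 0.42). With equal totals the difference of Hist1h2be at 60 min was −0.23 in place of 0.37, and those of Hist1h2bp and Hist1h2br were 1.29 and 1.06 in place of 2.14 and 1.90.

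Other genes of the pathway were read from 2 lists. Of 11 replication-independent histone genes, which supply histones outside S phase, 8 were listed in each table. Against mitosis, 4 of 8 were called higher at 40 min and 6 of 8 at 60 min in CCNA-GFP, none lower, where 49.3% and 88.3% of all rows were called higher. Their medians were 0.47 and 0.95, beside 0.26 and 0.79 over all rows. In −IAA cells 5 and 6 of 8 were called higher and 1 lower at each time, where 63.3% and 84.8% of rows were called higher, with medians of 0.90 and 1.12 beside 0.34 and 0.63 over all rows. The shares of this list called higher thus lay near or below those of all rows. H2afz, which encodes the variant H2A.Z, measured 1.32 ± 0.32 TPM in mitotic (SD, n = 3), 12.7 ± 0.87 TPM in 60 min (SD, n = 2) and 6.06 ± 1.93 TPM in asynchronous CCNA-GFP cells (SD, n = 3), and rose by 2.60 at 60 min. H3f3a, a gene for the variant H3.3, rose by 2.20 at 60 min in CCNA-GFP and 1.48 in −IAA cells, and H2afj by 0.50 and 0.97.

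All 17 genes of histone mRNA processing and histone chaperones were listed. In CCNA-GFP 11 of them had risen from mitosis by 40 min and 17 by 60 min, none lower, where 49.3% and 88.3% of all rows were called higher, with medians of 0.38 and 0.93 beside 0.26 and 0.79 over all rows. In −IAA cells 14 and 16 had risen, none lower, where 63.3% and 84.8% of rows were called, with medians of 0.57 and 0.76 beside 0.34 and 0.63. At 60 min most rows of the tables were thus called higher as well. Slbp, whose product binds the histone stem-loop, measured 1.62 ± 0.25 TPM in mitotic (SD, n = 3), 12.5 ± 1.27 TPM in 60 min (SD, n = 2) and 2.34 ± 0.67 TPM in asynchronous CCNA-GFP cells (SD, n = 3). Its difference at 60 min was 2.48 in CCNA-GFP and 1.96 in −IAA cells. Nasp, a chaperone of H3 and H4, rose by 1.26 and 0.73, and Chaf1a, a subunit of the chromatin assembly factor CAF-1, by 0.93 and 0.84. With IAA, no replication-independent histone gene was called against −IAA at any stage, and of the 17 genes 1 was called. This was Lsm11, a subunit of the U7 particle that cuts the 3′ end of histone pre-mRNA, named after its values were seen. It was higher with IAA by 0.77 ± 0.11 in asynchronous cells (adjusted p = 2.8e-04, 1.01% of rows called), 0.81 at 50 min (0.283% of rows), 0.86 at 60 min (0.225%), 1.00 at 90 min (0.733%) and 0.92 at 120 min (0.586%). Without replicate 1, only 3 of 81896 row contrasts with IAA were called over all stages, where 290 were before. The calls of Lsm11 were therefore not all kept in that alternative.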

How the data were processed

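RNA-seq was carried out on ribo-depleted, stranded, paired-end libraries of 19 CCNA-GFP and 36 CTCF-AID samples, grouped by their labels. Per the methods and the submitters' processing notes, the authors used STAR (genome mm10) and then RSEM, whose Gencode vM12 models had 1 unspliced isoform added for each gene. The authors deposited TPM of that isoform for curated RefSeq genes that passed 0.5 TPM in asynchronous cells or, failing that, in 2 or more samples after mitosis. Deposited TPM of each library are whole multiples of 0.01 TPM times a library factor (2.17–3.81 in CCNA-GFP, 1.84–2.80 in CTCF-AID, tolerance 0.02 of a step), whose purpose is not given in the sources used here. Both tables were read as deposited, with no column left out, and no test was made between them. The headers of the 6 asynchronous CTCF-AID columns are garbled: arm and replicate number can be read, but the stage name is damaged, and it was taken as asynchronous since its last letters remain and every other stage of each arm is spelled out.

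Here the linear model of limma 3.58.1 (R 4.3.3, lmFit, then trended eBayes) was fitted to log2(TPM + 1) of all rows of a table, two-sided, with Benjamini-Hochberg adjustment over all rows within each contrast. Stage contrasts had the replicate number as a block, since the study took fold changes within replicates, and used an adjusted p of 0.05. IAA contrasts had no block and called what had an adjusted p under 0.1 and moved by over 0.2 on the log2 scale. In CCNA-GFP the numbers pair the samples: deviations from the stage means correlated above 0.1 in 20 of 20 pairs of stages (0.18–0.84, median 0.54). No library was a copy of another, with at most 0.313% identical values between replicates. The lone CCNA-GFP library of 50 min entered no test. The fits were tested on simulated data. Python 3.11.15 (numpy 2.4.6, pandas 2.3.3, matplotlib 3.10.9) did the rest.

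All members were described. The 3 genes named from each pathway list were those of highest mean TPM in CCNA-GFP, and Hist1h2be, in 1 table only, was named with values for its small change at 60 min. Members, lists and rules were chosen with earlier results of these data known. Alternatives were a pseudocount of 0.1, a filter at a mean of 1 TPM, equal totals, removal of the library factor, each replicate left out, the other choice of block, and, added after seeing the data, the sum of Hist1h2bq and Hist1h2br. Promoters and starts are from RefSeq (GRCm38.p6), where 4 of 5 members had an entry and Hist1h2bc had none.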

Additional observations from a re-analysis of the deposited data

Results flagged for a closer look

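Hist1h2bp and Hist1h2br gave differences that every replicate showed in 1 direction in one setting and in the opposite direction in another. The values are means of the differences within replicates on the log2(TPM + 1) scale, and none of these contrasts between settings was tested. Hist1h2bp was higher with IAA in asynchronous cells (0.12) but lower with IAA in mitotic cells (−0.32) and at 120 min (−0.12). Hist1h2br was lower with IAA in asynchronous cells (−0.72) but higher at 50 min (0.38). Such turns also occurred in the other members, given here as ranges over replicates. Hist1h2bc was lower with IAA at 40 min (−0.16 to −0.13) and higher at 50 min (0.021 to 0.085). In mitotic cells Hist1h2be (−0.087 to −0.00081) and Hist1h2bq (−1.05 to −0.17) were lower. Hist1h2be was higher at 50 min (0.013 to 0.060) and Hist1h2bq at 90 min (0.0011 to 0.013). Between mitotic cells and 20 min, Hist1h2br was higher at 20 min in CCNA-GFP (0.80) and lower in +IAA cells (−0.76). None of these IAA differences was called by limma. Reads of Hist1h2br may be divided with its near-identical copy, and the part of that in its values was not tested.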

How the results depend on the processing

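Of 677 values recomputed for 79 differences of single genes (40, 60 and 120 min, asynchronous cells and the IAA contrasts), 610 kept their direction and their side of the threshold, 36 lost a call, 10 gained one and 21 changed sign. The cause of these changes was not tested. Calls against mitosis in CCNA-GFP numbered 20 of 28 and fell to 13 with equal totals (19–22 when 1 replicate was left out), and those against asynchronous cells 23 of 24 (20–24). Over all rows, 56.0% of the contrasts against mitosis were called, or 40.0% with equal totals, and 61.4% of those against asynchronous cells. In −IAA cells the calls of members numbered 23 of 35 against mitosis (19–23) and 20 of 30 against asynchronous cells (14–19), and in +IAA cells 20 of 35 against mitosis (18–22). The shares of contrasts called over all rows were 61.2%, 63.2% and 61.4%, in the same order. Higher and lower calls were 19 and 1 against mitosis in CCNA-GFP (11 and 2 with equal totals), 22 and 1 in −IAA cells (17 and 3) and 20 and 0 in +IAA cells (17 and 2), and 10 and 10 against asynchronous −IAA cells (9 and 15 with equal totals, 8 and 14 with the library factor removed, 9 and 4 without the block, 8 and 6 without replicate 3). The IAA contrasts (0 of 40) and the difference in rise (0 of 5) gave 0 in every alternative.

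Without the replicate block, calls numbered 17, 18, 21, 19 and, against asynchronous −IAA cells, 13, and the IAA contrasts with the block gave 0. In each of these stage comparisons the share of all rows called was also lower without the block than with it. The drop in calls was thus not particular to the members. In CTCF-AID the numbers correlated above 0.1 in 39 of 40 pairs of stages (lowest 0.054), so there they are not shown to pair all samples.

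Among these 79, signs turned as follows on the log2 scale, and at 90 and 120 min in CCNA-GFP other turns with equal totals are given with the results. With equal totals: Hist1h2bq at 40 min against mitosis in CCNA-GFP (−0.53), Hist1h2be at 60 min against mitosis (−0.15 −IAA, −0.23 +IAA), and against asynchronous −IAA cells Hist1h2be (−0.35) and Hist1h2bc (−0.32) at 60 min and Hist1h2bc at 40 min (−0.18). With the library factor removed: Hist1h2be at 60 min against asynchronous cells (−0.0093), Hist1h2bp in asynchronous against mitotic +IAA cells (0.027) and the IAA difference of Hist1h2be in asynchronous cells (0.013). When 1 replicate was left out, ranges crossed 0 for Hist1h2bq at 40 min against mitosis (−0.46 to 0.63 in CCNA-GFP, −0.20 to 1.80 in −IAA, −0.43 to 2.00 in +IAA cells), Hist1h2be at 40 min against mitosis (−0.050 to 0.0053 −IAA, −0.041 to 0.012 +IAA) and at 120 min against asynchronous −IAA cells (−0.42 to 0.21), Hist1h2bc at 40 min against them (−0.25 to 0.58), the difference in rise of Hist1h2bc (−0.049 to 0.33), and the IAA difference in asynchronous cells of Hist1h2bc (−0.14 to 0.077), Hist1h2be (−0.048 to 0.025) and Hist1h2bq (−0.038 to 0.19).

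With equal totals the median of all rows at 60 min against mitosis moved from 0.79 to 0.02 in CCNA-GFP and from 0.63 to 0.06 in both CTCF-AID arms. With the library factor removed it was 0.36 in CCNA-GFP, 0.43 in −IAA and 0.39 in +IAA cells. With 2 or 3 libraries per stage and no read counts, counting error cannot be separated from biological spread, and values near 1 TPM (Hist1h2be) lie near the listing threshold.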
